A study of Homo sapiens with 12 samples.

Results

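The genes described here encode subunits of RNA polymerase I, II and III, taken as every gene of the deposited table whose symbol is POLR1, POLR2 or POLR3 followed by a letter from A to L, with POLR3GL and with POLR2J2, POLR2J3 and POLR2J4. The rule found 30 of 57134 genes, 5 with a polymerase I symbol, 15 with a polymerase II symbol and 10 with a polymerase III symbol. They were measured in 12 total RNA libraries of HCT116, an established human colon carcinoma cell line, all made with MATQ-seq, an amplification chemistry that also captures RNA without a poly(A) tail. The DASHed libraries, 2 of mini-bulk input and 4 of single cells sorted by FACS, went through scDASH, in which Cas9 removes fragments of ribosomal RNA (rRNA), while the untreated libraries, again 2 and 4, did not. No genotype, drug or time distinguishes the groups, and the labels give neither the cell number of the mini-bulk input nor separate cultures, so a p-value here measures the spread between the libraries alone, and that spread may be technical. The cells numbered alike in both groups tracked each other closely, and whether they are the same cells is not given. Each single cell is 1 library, and the single-cell comparison therefore carries no test.

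The 3 nuclear polymerases divide transcription among themselves. RNA polymerase I makes the large rRNA precursor, RNA polymerase II makes messenger and many non-coding RNAs, and RNA polymerase III makes tRNAs, 5S rRNA and other short RNAs. Each is built around a pair of large catalytic subunits, here POLR1A with POLR1B, POLR2A with POLR2B and POLR3A with POLR3B. Some small subunits are used by all 3 enzymes (POLR2E, POLR2F, POLR2H, POLR2K and POLR2L), and POLR1C and POLR1D are used by both RNA polymerase I and RNA polymerase III, so a symbol names the enzyme in which the subunit was first placed. In a growing cell line all 3 enzymes are in use. Fragments of rRNA are what scDASH removes, and which rRNA species it targets is not given here, whereas the messenger RNAs of the subunits are not its target.

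These messenger RNAs differ in base composition, and the values below divide along it. The median GC content of the annotated transcripts ran from 36.6% in POLR2K to 62.7% in POLR2E. The following stretches show the coding sequence of POLR2A, which rose in mini-bulk, and of 3 members that fell (POLR2B, POLR3G and POLR3C). Each is the middle 120 bases of the longest coding exon, read 5′ to 3′ from GENCODE v29 transcripts (GRCh38), with G and C in capitals. They lie in exon 5 of POLR2A at chr17:7496845-7496964 on the plus strand (55.0% GC), exon 19 of POLR2B at chr4:57023395-57023514 on the plus strand (41.7%), exon 7 of POLR3G at chr5:90506541-90506660 on the plus strand (40.8%) and exon 3 of POLR3C at chr1:145826522-145826641 on the plus strand (48.3%).
POLR2A: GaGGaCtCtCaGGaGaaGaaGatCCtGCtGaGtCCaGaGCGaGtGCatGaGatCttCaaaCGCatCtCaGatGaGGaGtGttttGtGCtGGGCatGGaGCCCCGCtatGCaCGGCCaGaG
POLR2B: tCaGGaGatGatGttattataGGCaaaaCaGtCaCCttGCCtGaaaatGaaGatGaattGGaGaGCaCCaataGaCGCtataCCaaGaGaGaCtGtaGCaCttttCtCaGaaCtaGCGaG
POLR3G: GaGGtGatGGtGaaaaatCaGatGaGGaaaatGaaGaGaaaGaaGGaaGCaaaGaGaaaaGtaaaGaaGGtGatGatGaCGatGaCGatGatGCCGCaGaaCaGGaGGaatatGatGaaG
POLR3C: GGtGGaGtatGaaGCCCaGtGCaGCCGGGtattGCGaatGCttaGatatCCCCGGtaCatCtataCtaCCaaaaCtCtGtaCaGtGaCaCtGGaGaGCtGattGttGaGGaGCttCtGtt

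Library totals were 837614 and 1087711 estimated counts in DASHed and 5803180 and 6026584 in untreated mini-bulk libraries, and 1018874 to 1573651 in DASHed and 5545355 to 6008358 in untreated cells. rRNA took 20.5 to 24.4% of the counts of DASHed libraries and 45.2 to 52.9% of those of untreated ones. These shares include mitochondrial rRNA and rRNA pseudogenes and leave out 4 lincRNA genes that lie inside 18S rRNA genes. Those genes took a further 9.33 to 18.6% in DASHed and 21.1 to 37.3% in untreated libraries. Of 9 epithelial markers KRT8, KRT18, KRT19 and CDX2 were counted in every library, while CDX1 was at 0 throughout and VIL1 and CEACAM5 were at or near 0. EPCAM was counted in all libraries but DASHed cell 2. CDH1 had 35.9 and 24.1 CPM in DASHed and 7.41 and 13.8 CPM in untreated mini-bulk libraries. In cells CDH1 was low, at 0 to 1.77 CPM in the DASHed and 0.174 to 3.72 CPM in the untreated group. The 8 markers of immune, endothelial and stromal cells summed to 17.9 and 32.3 CPM (counts as a share of the library's total, on a common scale) in DASHed and to 5.42 and 7.15 CPM in untreated mini-bulk libraries, with CD3E, LYZ and VWF at 0 in all 12 libraries. In cells they summed to 0.635 to 22.1 CPM in the DASHed and to 1.30 to 7.56 CPM in the untreated group. COL1A1 was the highest of them in mini-bulk, with 26.7 and 13.1 CPM in DASHed and 2.82 and 3.45 CPM in untreated libraries. In DASHed mini-bulk it stood above EPCAM, which had 6.44 and 7.16 CPM. COL1A1 also had 18.9 CPM in DASHed cell 3 and 3.97 CPM in untreated cell 3. PTPRC, PECAM1, COL1A2 and DCN had counts in some libraries, with PECAM1 at 6.16 CPM in DASHed cell 1.

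The members together took a larger share of the counts after depletion. In mini-bulk the 5 polymerase I genes took 0.0253 and 0.0310% of all counts in DASHed libraries, against 0.00716 and 0.00954% in untreated ones, a ratio of means of 3.37. The polymerase II genes took 0.141 and 0.137% in DASHed and 0.0225 and 0.0268% in untreated libraries, a ratio of 5.65. The polymerase III genes took 0.0294 and 0.0330% in DASHed and 0.00710 and 0.00977% in untreated libraries, a ratio of 3.70. No DASHed value overlapped an untreated one, and an exact permutation test (two-sided) of 2 against 2 libraries could go no lower than the p = 0.333 it returned for each polymerase (0.333 after adjustment over the 3). With rRNA, and 4 lincRNA genes that lie inside 18S rRNA genes, left out of the total, the ratios were 0.906 for polymerase I, 1.52 for polymerase II and 0.999 for polymerase III. Most of the polymerase II share was POLR2A, which alone held 986 and 932 CPM in DASHed and 125 and 139 CPM in untreated libraries.

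**Figure D1:**
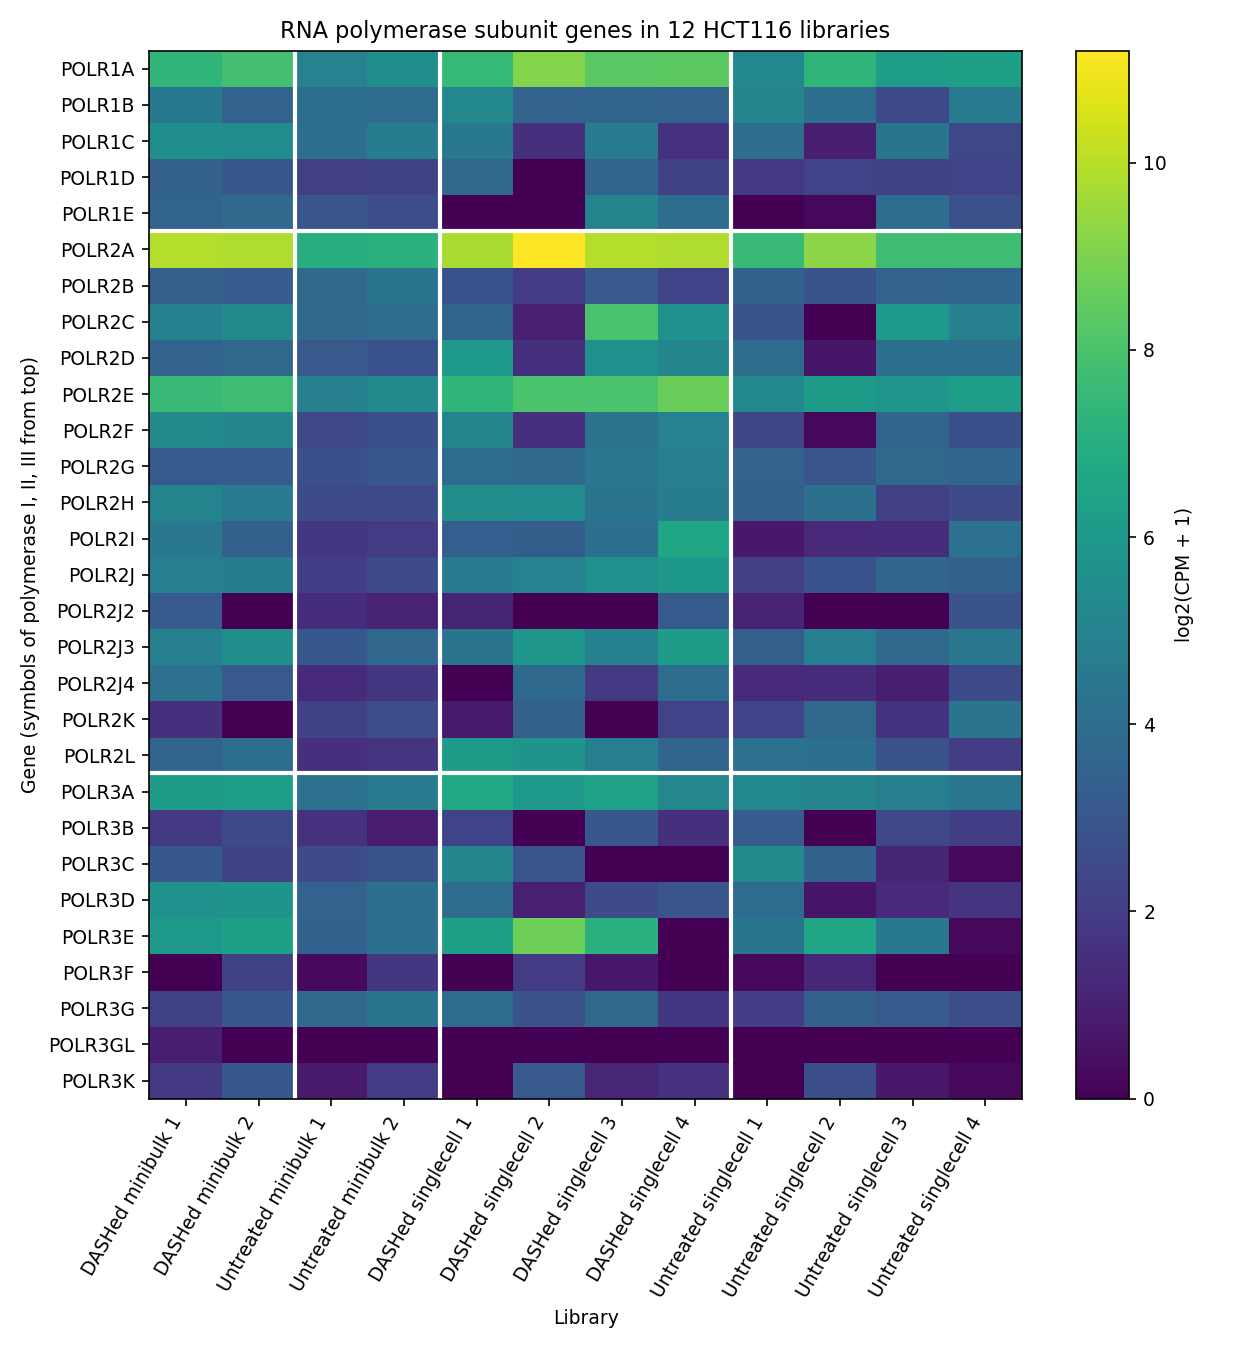
Level of 29 of the 30 subunit genes (rows, by polymerase I, II and III from the top) in the 12 libraries (columns, DASHed left of untreated within each input), as log2(CPM + 1). POLR2A is the brightest row in all libraries, POLR3GL is dark in all but 1 and POLR2C, POLR3E and POLR1E change from cell to cell.

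Levels between genes were compared per kilobase of the longest annotated transcript. POLR2A, which carries the catalytic centre and the C-terminal repeat domain of RNA polymerase II, had the highest level per kilobase in each of the 4 groups, and POLR2E, a subunit of all 3 enzymes, the second highest. In mini-bulk POLR2A stood at 142 CPM per kb in DASHed and 19.6 CPM per kb in untreated libraries, and POLR2E at 69.7 and 12.03 CPM per kb in the same order of groups. The partner of POLR2A, POLR2B, was far below it at 2.17 CPM per kb in DASHed and 4.00 CPM per kb in untreated libraries. At the lower end POLR3GL, POLR3F and POLR3B took the last places in DASHed libraries (0.287, 0.741 and 0.882 CPM per kb). Neighbours in the middle of the order, such as POLR2I, POLR2H and POLR3E at 15.5, 15.2 and 15.1 CPM per kb in DASHed libraries, lay closer together than the replicates of any of them.

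Against other genes, the members did not move as one group in mini-bulk. Of the 30 genes, 26 had enough counts to be tested, 2 rose and 7 fell at an adjusted p of at most 0.05 (edgeR quasi-likelihood test with trimmed mean of M-values, TMM, scaling and Benjamini-Hochberg adjustment over 10083 genes), and 17 did not pass. Of all genes tested 9.9% rose and 19.8% fell, so the members' 7.69% and 26.9% lay near the background. The median log2 fold change of the members was −0.11, beside 0.03 for all genes. Leaving out DASHed replicate 1 gave 4 that rose and 5 that fell, DASHed replicate 2 gave 2 and 4, untreated replicate 1 gave 1 and 4 and untreated replicate 2 gave 0 and 3. POLR2J2, POLR3B, POLR3F and POLR3GL were too scarce to test. In these bulk samples a difference in the cells taken and a difference in RNA per cell cannot be told apart.

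Among the polymerase I genes none rose and 2 of 5 fell. Their median log2 fold change was −0.90. POLR1A, the largest subunit, had 164 and 237 CPM in DASHed libraries, against 29.8 and 47.1 CPM in untreated ones. Its log2 fold change on the TMM scale was 0.38 ± 0.21 (SE; edgeR adjusted p = 0.207). POLR1B, the second catalytic subunit, had 22.1 and 10.7 CPM in DASHed and 15.5 and 14.0 CPM in untreated libraries. The ranges of POLR1B overlapped on the CPM scale, and relative to other genes it fell by 1.82 in log2 units (SE 0.42, edgeR adjusted p = 0.0124). POLR1C, an assembly subunit shared with RNA polymerase III, had 46.9 and 41.9 CPM in DASHed and 16.2 and 25.6 CPM in untreated libraries and fell by 0.90 relative to other genes (SE 0.27, edgeR adjusted p = 0.0335). This call was lost without any one of DASHed replicate 1 (adjusted p = 0.0587), DASHed replicate 2 (0.154) or untreated replicate 2 (0.136). POLR1D, its partner in the assembly, had a log2 fold change of −0.64, and POLR1E, a polymerase I subunit that takes part in initiation, one of −1.03. Neither passed the test.

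Among the polymerase II genes 1 of the 14 tested rose and 3 fell, and the median log2 fold change was 0.49. POLR2A rose by 0.84 ± 0.15 in log2 units (SE, edgeR adjusted p = 0.00433), the CPM of its DASHed libraries standing far above those of its untreated ones. Without untreated replicate 2 the change was 0.54 and the edgeR adjusted p 0.179. POLR2B, the second catalytic subunit, had 9.47 and 8.36 CPM in DASHed and 13.8 and 19.1 CPM in untreated libraries. POLR2B was thus lower in DASHed libraries even as a share of counts, and relative to other genes it fell by 2.88 (SE 0.37, edgeR adjusted p = 0.00107), which all 4 fits with a library left out also called. The catalytic pair of RNA polymerase II thus stood on opposite sides on the TMM scale, while library totals alone gave 2.87 for POLR2A and −0.89 for POLR2B.

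The stalk of RNA polymerase II is formed by POLR2D and POLR2G. POLR2G had 8.27 and 8.36 CPM in DASHed and 5.64 and 7.24 CPM in untreated libraries and fell by 1.63 relative to other genes (SE 0.48, edgeR adjusted p = 0.0319). It lost its call without either DASHed replicate (adjusted p = 0.0740 without replicate 1 and 0.0835 without replicate 2). POLR2D had a log2 fold change of −1.30 (edgeR adjusted p = 0.0659). POLR2C, an assembly subunit, had one of −0.74, and POLR2I, which takes part in start-site choice and proofreading, one of 0.52, and neither passed.

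The subunits shared by all 3 enzymes did not move together. POLR2K, the smallest zinc-binding one, had 1.84 and 0 CPM in DASHed libraries, from 2 counts in all, against 3.65 and 5.34 CPM in untreated ones. Its DASHed values lay below both untreated ones, and it fell on the TMM scale (edgeR adjusted p = 0.0108), with a ratio of rounded counts scaled by effective library sizes of 0.0576 (exact Poisson-based 95% interval 0.0068 to 0.219). The other shared subunits lay above 0. POLR2E had 186 and 209 CPM in DASHed and 28.2 and 39.9 CPM in untreated libraries, and its log2 fold change of 0.53 ± 0.18 missed the threshold (SE, edgeR adjusted p = 0.0521). POLR2F had 37.7 and 33.4 CPM in DASHed and 4.31 and 5.69 CPM in untreated libraries, with a log2 fold change of 0.83. POLR2H and POLR2L had log2 fold changes of 0.45 and 0.68, and none of these 4 passed.

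Among the 7 polymerase III genes tested POLR3C and POLR3G, which sit with POLR3F in a subcomplex that opens the promoter, both fell. The median log2 fold change of the 7 was −0.14. POLR3G had 3.68 and 7.16 CPM in DASHed and 13.3 and 19.3 CPM in untreated libraries. Its DASHed values lay below both untreated ones in CPM, and it fell by 3.61 relative to other genes (SE 0.44, edgeR adjusted p = 0.000798), a call made in all 4 fits with a library left out. POLR3C had 7.35 and 3.58 CPM in DASHed and 4.81 and 6.56 CPM in untreated libraries, which overlap, and fell by 1.99 relative to other genes (SE 0.57, edgeR adjusted p = 0.0295), but not without DASHed replicate 2 (adjusted p = 0.104). POLR3GL, the paralogue that can take the place of POLR3G, had 1 count in 1 library, while POLR3G had counts in all 12. The catalytic subunit POLR3A had 70.8 and 76.4 CPM in DASHed and 17.3 and 22.9 CPM in untreated libraries, with a log2 fold change of −0.14 (edgeR adjusted p = 0.654). Its partner POLR3B, not tested, had 2.76 and 4.78 CPM in DASHed and 1.99 and 0.862 CPM in untreated libraries. POLR3D and POLR3E, which form a pair needed for initiation and termination, had log2 fold changes of 0.00 and 0.48, and POLR3K, which helps the enzyme cleave RNA at termination, one of −0.61, none of them past the test.

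**Figure D2:**
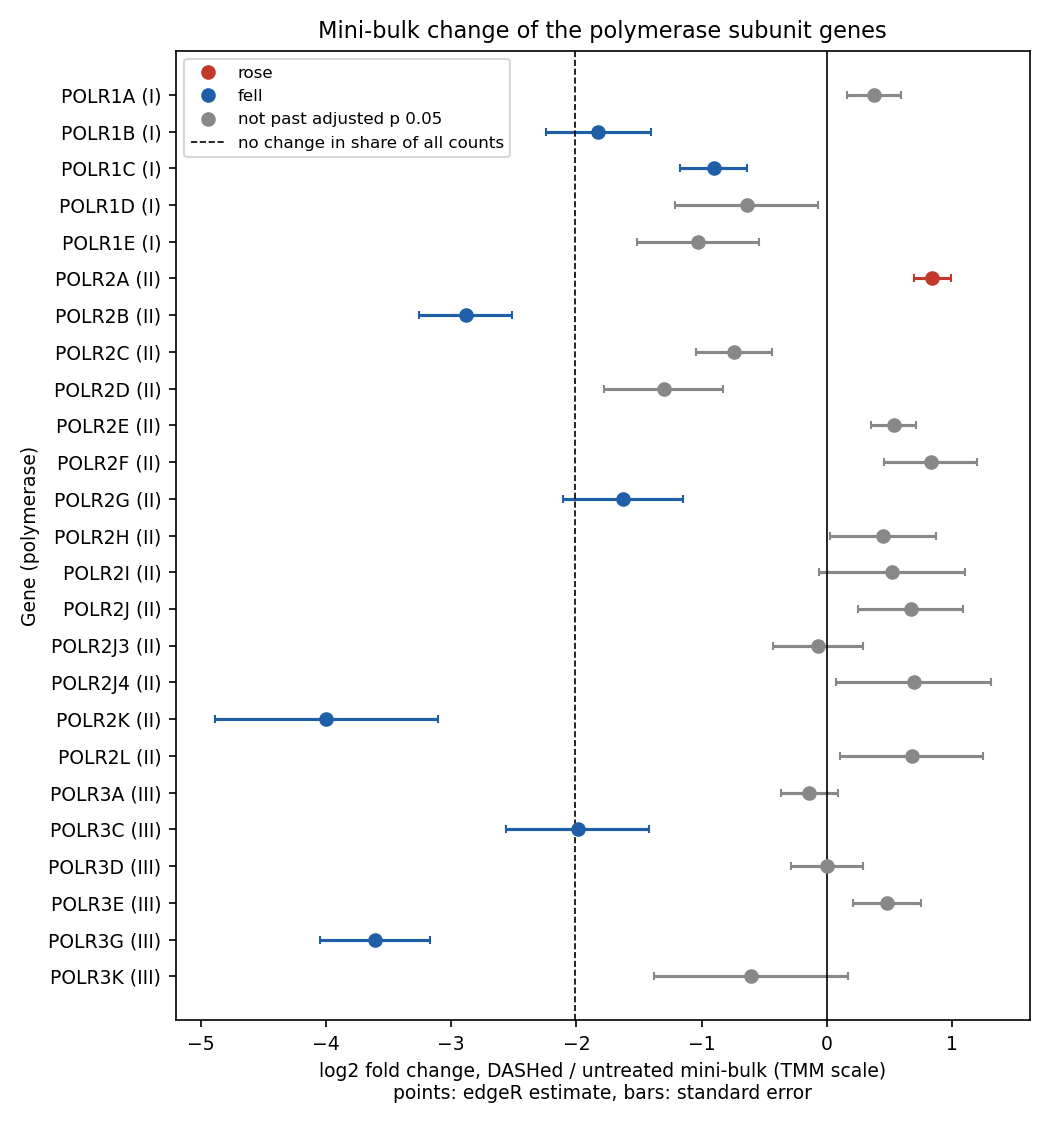
Mini-bulk log2 fold change, DASHed over untreated, of 25 of the 26 subunit genes tested, as edgeR estimates on the TMM scale with bars of 1 standard error. POLR2A lies right of 0 past the threshold, 7 genes lie left of 0 past it, and only POLR2B, POLR2K and POLR3G lie well left of the dashed line, where a gene's share of all counts would be equal in both groups.

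The direction of 10 of the 26 members tested depended on the scaling, and 16 kept their sign. Scaled by library totals alone, the median gene rose by 2.04 on the log2 scale, 66.6% of all genes rose and 1.37% fell, and of the members 16 rose and 1, POLR3G, fell. On that scale POLR1B, POLR1C and POLR2G turned to 0.20, 1.09 and 0.38, while POLR2B, POLR2K and POLR3G stayed negative at −0.89, −2.08 and −1.61. In CPM 21 of the 30 members had both DASHed libraries above both untreated ones (76.7% of genes tested), POLR2B, POLR2K and POLR3G had both below (5.95%), and 6 overlapped. The percentages cover tested genes only, whereas the 30 include the untested POLR3B, which was above, and POLR2J2, POLR3F and POLR3GL, which overlapped.

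The sign of the TMM-scale changes followed GC content. Of the 12 members tested with a median transcript GC content under 50%, 11 had negative log2 fold changes, 6 fell and none rose, with a median of −1.17. Of the 14 at or over 50%, 3 had negative values, 2 rose and 1, POLR2G, fell, with a median of 0.53. Over all genes tested the medians were −1.26 for 4539 genes under 50% and 0.62 for 5541 genes at or over it, so the members lay close to other genes of like composition. Of all genes under 50%, 87.4% had negative values, 24 rose and 1902 fell. Of all genes at or over 50%, 17.7% had negative values, 974 rose and 95 fell. Across the 26 members the correlation of log2 fold change with GC content was 0.868 (Pearson) and 0.838 (Spearman), beside a Spearman value of 0.789 across 10080 genes, which share the same libraries and are not independent replicates. With a GC correction fitted over all genes, 1.67% of genes rose and 2.11% fell. None of the members rose then, and POLR3G was the 1 that fell (log2 fold change −2.07 ± 0.46 SE, edgeR adjusted p = 0.0412), while POLR2A stood at 0.39, POLR2B at −1.41 and POLR2K at −2.11 without passing. Both the split and the correction used the median over annotated transcripts. For POLR3G that median was 41.4%, while a representative transcript had 34.3%. Representative transcripts of POLR1D (57.2%), POLR2H (60.1%) and POLR3D (49.7%), among others, lay on the other side of 50% from the median. A correction on representative transcripts was not tested.

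**Figure D3:**
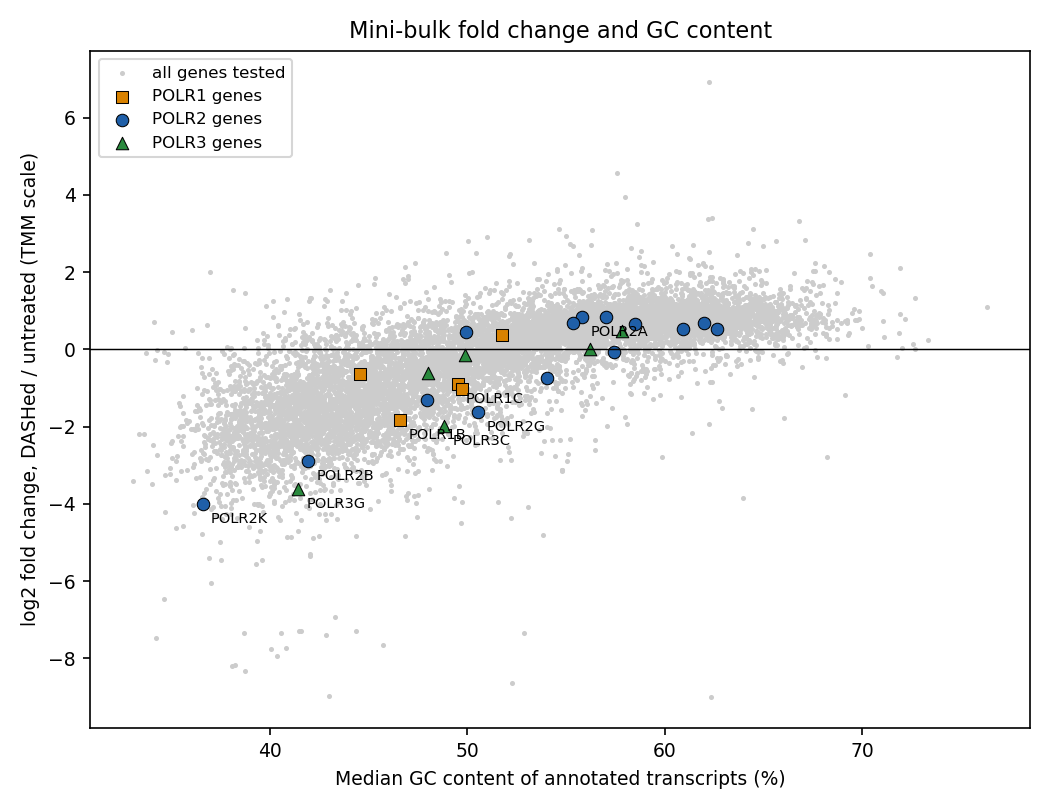
Mini-bulk log2 fold change, DASHed over untreated (TMM scale), against the median GC content of each gene's annotated transcripts, for all genes tested (grey) and the subunit genes of polymerase I (squares), II (circles) and III (triangles). The members lie along the grey band, from POLR2K at 36.6% GC and −4.00 to the polymerase II genes above 55% GC, most of which lie above 0.

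POLR2J, the partner of POLR2C in the assembly of RNA polymerase II, belongs to a family of genes on chromosome 7 that are alike in part of their sequence. The first 90 coding bases of POLR2J, POLR2J2 and POLR2J3 are nearly the same. The start of POLR2J lies at chr7:102476231-102478860, that of POLR2J2 at chr7:102668965-102671601 and that of POLR2J3 at chr7:102569885-102572521, all on the minus strand of GRCh38 across 2 exons (GENCODE v29). Capitals mark the bases that differ from POLR2J, of which POLR2J2 has 2 and POLR2J3 has 0.
POLR2J: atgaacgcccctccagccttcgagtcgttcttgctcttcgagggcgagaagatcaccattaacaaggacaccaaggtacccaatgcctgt
POLR2J2: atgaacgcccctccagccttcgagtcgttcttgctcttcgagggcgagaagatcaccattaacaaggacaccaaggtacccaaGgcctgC
POLR2J3: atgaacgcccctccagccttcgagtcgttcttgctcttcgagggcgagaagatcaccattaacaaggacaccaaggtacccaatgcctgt

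Over whole transcripts POLR2J2 shared 93.7% of its 31-base words with POLR2J3, and POLR2J shared 37.5% with POLR2J3. The authors' program divides reads among such transcripts, so the split below is uncertain and the sum is firmer. The 4 genes together held 80.7 and 79.5 CPM in DASHed mini-bulk libraries and 14.0 and 20.4 CPM in untreated ones. POLR2J took 33.1 and 31.2% of the family in DASHed and 23.2 and 23.7% in untreated libraries. POLR2J, POLR2J3 and POLR2J4 had log2 fold changes of 0.67, −0.07 and 0.69, none past the test. In single cells POLR2J2 was at 0 in DASHed cells 2 and 3 and in untreated cells 2 and 3.

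In single cells 28 of the 30 members had at least 20 counts over the 8 cells. Their ratios are those of summed CPM with 1 CPM added, set against the median of 13509 genes, which was 2.19-fold higher in DASHed cells. POLR2I, POLR2J and POLR2E were at least 2-fold higher (12.8% of genes were), and POLR1B, POLR2B, POLR2K, POLR3B and POLR3C at least 2-fold lower (23.7% were). As means over same-numbered pairs, centred on the same genes, 10 were at least 2-fold higher and 3 lower. With each pair centred on the genes counted in that pair, a setting chosen after the data were seen, the counts were 0 and 9. Shares of all genes with means over pairs are not given. Whether these counts are particular to the members was not tested. Leaving out single cells moved the count of higher members to 7, 5, 7 and 6 without DASHed cells 1 to 4 and to 1, 8 and 6 without untreated cells 1 to 3, and that of lower members to 3 without DASHed cell 4 and 2 without untreated cell 1. Each time a cell was left out, the cell of the same number in the other group was kept. The median relative log2 ratio was −0.22 for polymerase I, 0.61 for polymerase II and −0.65 for polymerase III. As means over pairs these medians, in the same order of polymerases, were −0.33, 0.78 and 0.07 with the first centring and −1.17, −0.06 and −0.77 with the second. Across the members the ratio had a Spearman correlation of 0.797 with GC content, beside 0.696 across all genes, and 20 of 26 members had the same sign as in mini-bulk. The share of all genes with the same sign in both inputs is not given.

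POLR1B, POLR2B, POLR2K and POLR3C were lower in both inputs. POLR2B had 6.03, 2.94, 7.805 and 3.81 CPM in DASHed cells 1 to 4, against 10.1, 6.49, 10.3 and 11.6 CPM in untreated cells 1 to 4. Each DASHed cell was below the untreated cell of its number, and the relative log2 ratio was −1.89, with −2.12 to −1.64 when any 1 cell was left out. POLR2K had 0.754, 9.81, 0 and 3.81 CPM in DASHed and 3.82, 12.3, 2.16 and 18.5 CPM in untreated cells, again lower in each DASHed cell, at a relative log2 ratio of −2.42. POLR1B had 36.2, 10.8, 11.1 and 10.3 CPM in DASHed and 32.3, 16.0, 4.49 and 22.6 CPM in untreated cells. These ranges overlap, and the ratio of −1.27 moved to −0.91 without untreated cell 1. POLR3B had 3.77, 0, 7.15 and 1.91 CPM in DASHed and 8.51, 0, 4.33 and 3.18 CPM in untreated cells, a relative log2 ratio of −1.30 that was −0.82 without untreated cell 1. POLR3G, which fell in mini-bulk, had 14.3, 5.89, 13.0 and 2.54 CPM in DASHed and 3.13, 10.1, 7.99 and 5.47 CPM in untreated cells. Its summed CPM was higher in DASHed cells, at 8.98 against 6.66, unlike in mini-bulk. The relative log2 ratio of −0.75 did not reach 2-fold. Its same-numbered pairs 1 to 4, centred on the same genes, stood at 1.36, −0.69, −0.16 and −1.37.

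Of the members that were higher, POLR2E had 158, 263, 263 and 404 CPM in DASHed and 36.5, 66.9, 56.5 and 75.7 CPM in untreated cells. The groups did not overlap, and the relative log2 ratio was 1.09. POLR2J had 24.0, 30.5, 47.6 and 61.7 CPM in DASHed and 3.29, 6.02, 11.5 and 9.68 CPM in untreated cells, a relative log2 ratio of 1.20. POLR2I was highest in the cells numbered 4. It had 9.05, 8.83, 16.3 and 94.7 CPM in DASHed and 0.695, 1.62, 1.66 and 17.6 CPM in untreated cells. Its relative log2 ratio of 1.40 was 0.00 without DASHed cell 4 and 2.74 without untreated cell 4, with the other cell of that number kept. The same-numbered pairs 1 to 4, centred on the same genes, lay close together at 2.03, 1.91, 1.89 and 1.86. Centred on the genes counted in each pair, they stood at 1.04, 0.72, 1.08 and 1.02. Of its exonic bases 79.6% overlap other genes, all of which lie on the opposite strand. POLR2A, which rose in mini-bulk, had a relative log2 ratio of 0.85.

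**Figure D4:**
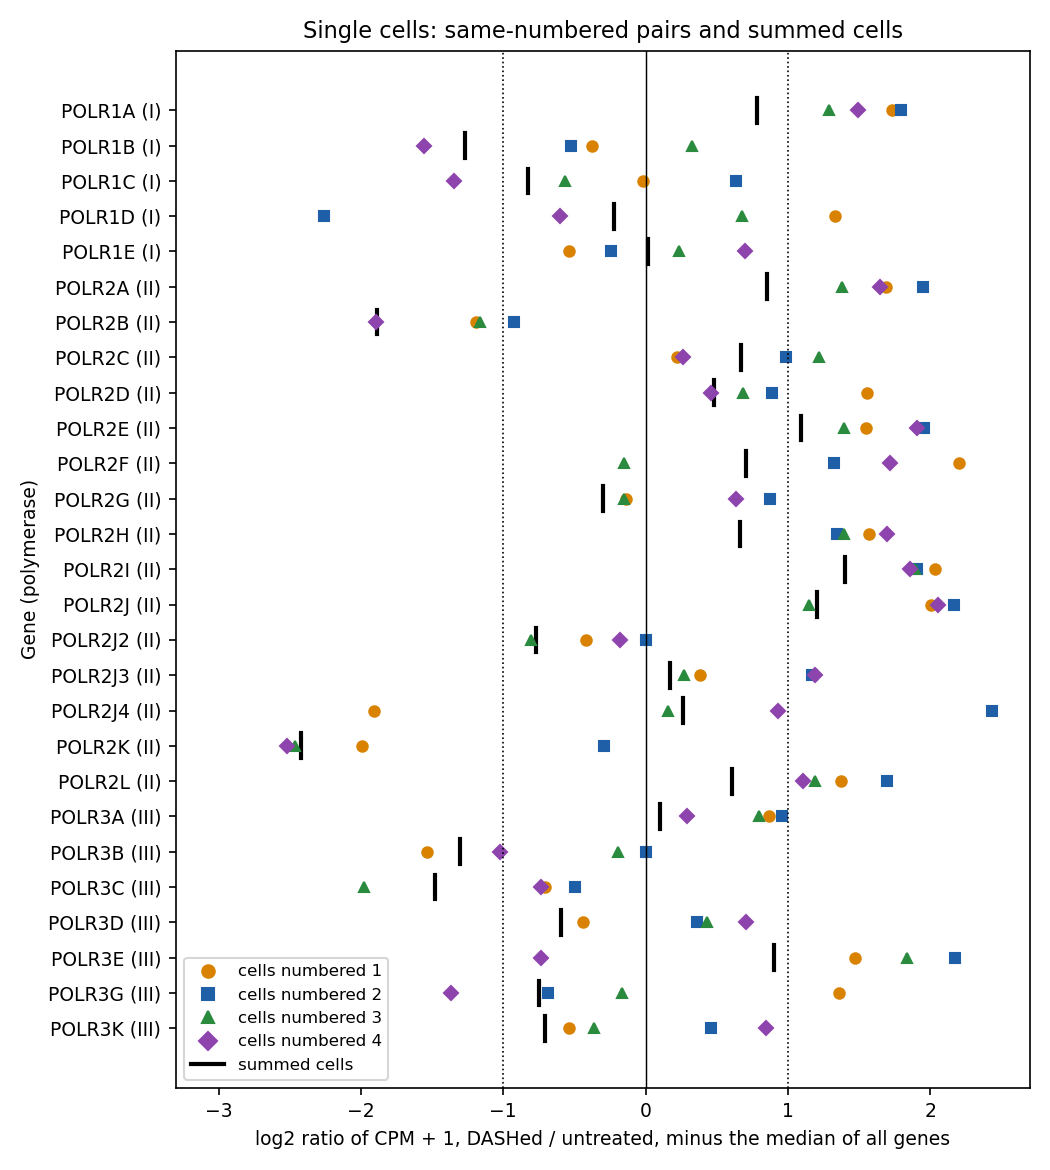
Relative log2 ratio, DASHed over untreated, of 27 of the 28 subunit genes with at least 20 counts, for the same-numbered cells (symbols) and for the summed cells (black bars), each minus the median of the same 13509 genes. POLR2A and POLR2E have all 4 pairs above 0, POLR2B, POLR2K and POLR3C have all 4 below, and POLR2J4 has pairs far apart on both sides.

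Cells of one group differed widely in single members. POLR2A was highest in the cells numbered 2, with 874, 2347, 993 and 930 CPM in DASHed cells 1 to 4, against 186, 608, 217 and 209 CPM in untreated cells 1 to 4. POLR2C was highest in the cells numbered 3, with 11.3, 0.981, 258 and 48.9 CPM in DASHed and 6.25, 0, 62.9 and 28.4 CPM in untreated cells. Its relative log2 ratio of 0.67 was −1.05 without DASHed cell 3 and 1.69 without untreated cell 3, with the other cell of that number kept. The same-numbered pairs 1 to 4 stood at 0.22, 0.99, 1.22 and 0.27 when centred on the same genes. Centred on the genes counted in each pair, they stood at −0.78, −0.20, 0.41 and −0.58. POLR3E was absent or nearly so from the cells numbered 4, with 80.7, 426, 141 and 0 CPM in DASHed and 19.3, 93.8, 21.8 and 0.177 CPM in untreated cells. For DASHed cell 4, a count of 0 allows up to 1.91 CPM. Its partner POLR3D followed another order, at 15.1, 0.981, 4.91 and 6.68 CPM in DASHed and 14.0, 0.541, 1.51 and 2.33 CPM in untreated cells.

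POLR3C was highest in the cells numbered 1, with 34.7, 6.87, 0 and 0 CPM in DASHed and 39.2, 10.1, 1.26 and 0.176 CPM in untreated cells. Its relative log2 ratio of −1.48 was 0.02 without untreated cell 1 and −3.41 without DASHed cell 1, with the other cell of that number kept. The same-numbered pairs 1 to 4, centred on the same genes, were all below 0, at −0.71, −0.50, −1.98 and −0.73. POLR1E was found in the cells numbered 3 and 4, with 0, 0, 31.9 and 14.6 CPM in DASHed and 0, 0.180, 15.0 and 5.82 CPM in untreated cells.

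The cell in which a member was highest had the same number in both groups for 17 of 28 members, while 77.9% of 13396 genes had this. By polymerase the counts were 4 of 5 genes for polymerase I, 7 of 15 for polymerase II and 6 of 8 for polymerase III. The summed share of the polymerase III genes was highest in the cells numbered 2 and lowest in those numbered 4, at 0.0486, 0.117, 0.0371 and 0.00953% of counts in DASHed cells 1 to 4, against 0.0164, 0.0306, 0.00907 and 0.00417% in untreated cells 1 to 4. Polymerase II shares were 0.133 to 0.285% in DASHed and 0.0316 to 0.0770% in untreated cells, and polymerase I shares 0.0250 to 0.0564% in DASHed and 0.00865 to 0.0179% in untreated cells. The ratios of mean shares were 3.14 for polymerase I, 3.94 for polymerase II and 3.52 for polymerase III, and the last was 2.11 without DASHed cell 2 and 5.37 without untreated cell 2.

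**Figure D5:**
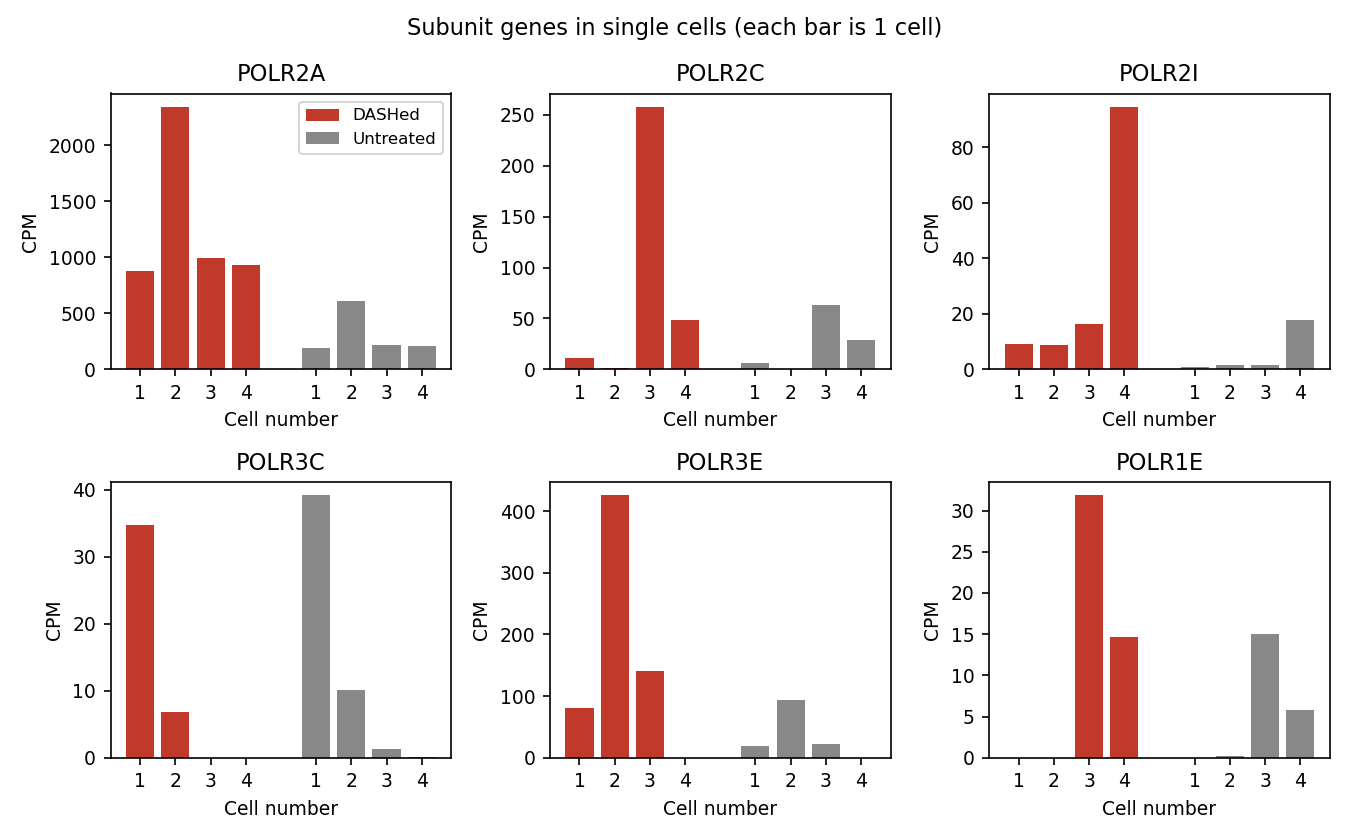
CPM of POLR2A, POLR2C, POLR2I, POLR3C, POLR3E and POLR1E in each single cell, DASHed cells 1 to 4 left of untreated cells 1 to 4, on linear axes that start at 0. The tallest bar has the same cell number in both groups for each of these 6 genes, which were chosen for the display after their values were seen.

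At equal depth similar numbers of members were seen at all in both groups, and more were well counted in DASHed libraries. Numbers for all genes at the same depths are not given, and whether this is particular to the members was not tested. At an equal depth of 837450 counts, 27.8 ± 1.20 of the 30 members were expected with at least 1 count in DASHed and 27.1 ± 0.70 in untreated mini-bulk libraries (SD, n = 2 each, exact two-sided permutation p = 0.667). When 10 counts were asked for, the numbers were 16.8 ± 1.18 in DASHed and 10.3 ± 1.55 in untreated libraries (SD, n = 2 each, exact permutation p = 0.333). This is the lowest p that 2 against 2 libraries allow. In single cells, at 1018815 counts, 25.3 members on average had 1 count in DASHed and 24.6 in untreated cells, and 17.8 and 13.5 had 10, in the same order of groups. At the full depth of each library, which is lower in the DASHed ones, the averages with 1 count were 28 in DASHed and 29 in untreated mini-bulk libraries and 25.5 in DASHed and 27 in untreated cells. With rRNA and the 18S-embedded lincRNAs left out before thinning, they were 27.9 in DASHed and 28.8 in untreated mini-bulk libraries. In cells they were then 25.3 in DASHed and 26.2 in untreated ones.

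Partners of the polymerases also stood on both sides in mini-bulk, where 9.9% of all genes tested rose and 19.8% fell. A list of subunits under other symbols also held POLRMT, the mitochondrial RNA polymerase, which is not a subunit of the 3 enzymes. Of this list 5 genes were tested and none passed (edgeR adjusted p). POLRMT had 74.5 and 117 CPM in DASHed and 8.46 and 22.4 CPM in untreated libraries. CD3EAP, a polymerase I subunit, had 36.4 and 32.2 CPM in DASHed and 6.09 and 6.20 CPM in untreated libraries. Relative to other genes their log2 fold changes were 0.65 and 0.47. CRCP stood at 0.32, while POLR2M stood at −1.38 and TWISTNB at −1.85 (edgeR adjusted p = 0.0586 for TWISTNB). Of 5 polymerase I initiation factors tested none rose and 2 (40%) fell, TAF1B and TAF1D of the promoter selectivity factor. TAF1D fell by 1.80 relative to other genes (edgeR adjusted p = 0.00452), at 0.21 with library totals alone, and TAF1B fell by 3.47 (edgeR adjusted p = 0.0225), with 1.67 and 0 CPM in DASHed and 3.15 and 2.95 CPM in untreated libraries. The median log2 fold change of the list was −1.41, and its transcripts had a median GC content of 44.4%.

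Of 19 polymerase II initiation and elongation factors 3 rose and 3 fell (15.8% each, beside 9.9% and 19.8% of all genes), with a median of −0.12. Those that rose were GTF2H4 and ERCC2 of TFIIH and SUPT5H of the elongation factor DSIF. TCEA1, which helps a stalled polymerase restart, fell by 3.78 (SE 0.71, edgeR adjusted p = 0.00526), with 0.919 and 2.39 CPM in DASHed and 5.14 and 6.20 CPM in untreated libraries. GTF2H2 and GTF2H3, also of TFIIH, fell by 2.26 and 2.05, so that subunits of 1 factor stood on both sides. Of 16 polymerase III initiation and control genes 4 rose, GTF3C1 and GTF3C5 of TFIIIC, SNAPC4 and the repressor MAF1, and 2 fell, GTF3C4 of TFIIIC by 1.17 and SSB, the La protein that binds new polymerase III transcripts, by 1.99. These are 25% and 12.5% of the list, beside 9.9% and 19.8% of all genes, and the median was −0.03. Scaled by library totals alone, GTF3C4 stood at 0.85 and SSB at 0.02. Of 13 assembly and import factors RPAP1 and RUVBL2 rose and UXT, RPAP2, RPAP3 and URI1 fell, with log2 fold changes of −1.44, −2.28, −2.70 and −3.22. These are 15.4% and 30.8% of the list, beside the same 9.9% and 19.8%, and the median was 0.24. After the GC correction 2 genes of all these lists passed, both among the polymerase II factors. TCEA1 fell by 3.12 (edgeR adjusted p = 0.0482), and TBP, the TATA-binding protein that all 3 polymerases use, rose by 1.44 (0.0405), after a log2 fold change of 0.59 without the correction.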

How the data were processed

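The 12 MATQ-seq libraries hold total RNA of HCT116 cells. The values deposited by the authors are unscaled estimated counts for each gene. The submitters' processing notes name kallisto 0.46.2. Build, annotation, strand handling and the summing of transcripts were not given in the sources used. The program divides reads among similar transcripts, and 31.2 to 55.9% of nonzero values are fractional. Names matched GENCODE v29 for 57130 of 57134 genes, after 51 of 52 damaged names were restored. Library totals are given with the results, and 3 counts, the floor used for a 0, equal 0.498 to 3.58 CPM.

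Estimated counts were rounded and tested in mini-bulk with edgeR 4.0.16 (R 4.3.3) after its default expression filter. The DASHed libraries had TMM factors of 1.96 and 2.09, and the untreated ones of 0.442 and 0.553. The GC correction was a loess offset. Alternatives included DESeq2 1.42.0, other scalings and filters, a replicate block and leaving out each library. Single cells were summed per group, with a pseudocount of 1 CPM. Expected numbers of members at equal depth are hypergeometric. Counting error is all that intervals and floors cover. The tests were tried on simulated data. Members with an overlap of 10% or more of exonic sequence with other genes (POLR1C, POLR2B, POLR2I, POLR2J2, POLR2J3, POLR2J4, POLR2L and POLR3GL among them) are uncertain, as are antisense overlaps in general.

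Full values were given to members past the threshold, catalytic and shared subunits, paralogues and the largest single-cell ratios, and to up to 3 members of each list of partner genes. POLR2C, POLR2D, POLR3D, POLR3E and POLR1E, and list genes beyond 3, were added after their values were seen. One member, counted among the members throughout, is not reported here and is left out of the figures. The members and lists were chosen with earlier results of these data known. Same-numbered DASHed and untreated cells moved together around their group means (correlations of 0.916 to 0.926 over 8757 genes), so their numbers were taken to pair them, from the data alone.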

Additional observations from a re-analysis of the deposited data

Results flagged for a closer look

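Of 64 groups of 4 cells examined, covering the members and their summed shares, 10 held a cell far from the other 3, or 15.6%. The criterion marks about 1 in 20 groups of independent, normally distributed values by chance, and its rate for skewed single-cell CPM from cells that move together by number was not measured. The cells numbered 2 stood apart for POLR2A in both groups, at 2347 CPM in DASHed cell 2 (next highest 993) and 608 CPM in untreated cell 2 (next highest 217). The cells numbered 4 stood apart for POLR2I in both groups, at 94.7 CPM in DASHed cell 4 and 17.6 CPM in untreated cell 4. In 1 group alone, DASHed cell 1 was high for POLR1B (36.2 CPM) and DASHed cell 4 for POLR2J2 (8.05 CPM). Untreated cell 1 was high for POLR3D (14.0 CPM), untreated cell 2 was high for POLR3F (1.41 CPM) and POLR3K (5.42 CPM) and low for POLR2D (0.597 CPM).

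Direction differed between inputs for 3 of the 26 members compared, in the sense that both DASHed mini-bulk libraries lay on 1 side of both untreated ones on the TMM scale and all 4 same-numbered pairs of cells on the other. POLR2C had a mini-bulk log2 fold change of −0.74 and a relative single-cell log2 ratio of 0.67, POLR2D had −1.30 and 0.48, and POLR3A had −0.14 and 0.10. The difference itself was not tested, and the share of all genes that would be flagged in this way is not given. With 1 cell left out the single-cell ratio was −1.05 (without DASHed cell 3) to 1.69 (without untreated cell 3) for POLR2C, 0.024 to 0.82 for POLR2D, and −0.14 (without untreated cell 4) to 0.48 for POLR3A, which was also −0.044 without DASHed cell 1. It depended on how pairs were centred. Centred on the genes counted in each pair, a setting chosen after the data were seen, 3 of the 4 pairs were below 0 for POLR2C and for POLR2D and 4 of 4 for POLR3A, so that none of them kept all pairs above 0.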

How the results depend on the processing

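Of the members' counts, medians, shares and detection differences recomputed, 130 values stayed close to those reported, 64 moved and 8 turned, and of the values for lists of partner genes 79 stayed close and 51 moved. Low counts and the 2 libraries per mini-bulk group limit precision, the cause of each change was not tested, and fits that left out an untreated library gave no value for POLR2G, POLR2K, POLR3C and POLR3K, which the filter then removed. Scaled by library totals alone, 16 members rose and 1 fell, the polymerase medians were 1.09 (I), 2.50 (II) and 1.88 (III), and POLR1B (0.20), POLR1C (1.09), POLR1D (1.37), POLR1E (1.01), POLR2C (1.29), POLR2D (0.74), POLR2G (0.38), POLR2J3 (1.94), POLR3A (1.88), POLR3K (1.35), TAF1D (0.21), SSB (0.020) and GTF3C4 (0.85) turned positive. With the GC correction none rose and 1 fell, the medians were −0.56 for polymerase I and −0.19 for polymerase II, and POLR1D (0.49), POLR2E (−0.20), POLR2I (−0.17), POLR2L (−0.044), POLR3A (0.15), POLR3D (−0.48), POLR3E (−0.11), POLRMT (−0.088), CD3EAP (−0.23), TAF1D (0.067) and SSB (0.072) turned. With DESeq2 2 rose and 4 fell, and POLR2J3 stood at 0.0062. POLR2J3 stood at 0.016 with rRNA and the 18S-embedded lincRNAs removed and at 0.074 with a filter of 10 counts in 2 libraries, where POLR3A stood at 5.1e-05. The polymerase III median was 0.071 with that filter and −0.33 without a filter.

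The mini-bulk libraries share only a replicate number, whose deviations correlated at 0.453 with 2 pairs. With the replicate block 6 members rose and 10 fell. A fit with a block on these 2 pairs has little left from which to estimate the spread. For POLR2A the edgeR adjusted p was 3.36e-23 with the block and 0.00433 without it. Shares of all genes called with the block, alone or with the GC correction, are not given. Whether either pair of counts is particular to the members was not tested. With the block and the GC correction 2 rose and 6 fell, the medians were −0.54 for polymerase I and −0.22 for polymerase II, and POLR1D (0.48), POLR2E (−0.20), POLR2I (−0.24), POLR2L (−0.042), POLR3A (0.16), POLR3D (−0.47), POLR3E (−0.10), POLR3K (0.080), POLRMT (−0.055), CD3EAP (−0.24), TAF1D (0.076) and SSB (0.074) turned.

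For the single cells, at least 2-fold higher and lower were 7 and 2 members with a pseudocount of 5 CPM, 16 and 1 without centring, 10 and 3 as means over pairs and 0 and 9 with pairs centred on their own genes. Higher were 1 when centred on genes of like expression and 0 with at least 100 counts. Shares of all genes in these settings are not given. The polymerase I median was 0.91 without centring, −1.17 with pairs on their own genes and −0.62 with at least 100 counts. The polymerase II median was 1.74 without centring, 0.0035 among genes of like expression, −0.061 with pairs on their own genes and 0.26 with at least 100 counts. The polymerase III median was −0.38 with 5 CPM, 0.48 without centring, 0.066 as means over pairs and −0.998 with at least 100 counts. Without rRNA and the lincRNAs in the total, share ratios were 0.906 (I), 1.52 (II) and 0.999 (III) in mini-bulk and 1.05 (I) and 1.34 (II) in cells. The difference in members detected, 0.79 in mini-bulk and 0.71 in cells, was −1 and −1.50 unthinned, 6.49 and 4.26 at 10 counts and −0.88 and −0.91 with rRNA left out.

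Leaving out 1 library at a time, where the lone mini-bulk sample is assumed to vary like the other group, gave 0 to 4 members that rose and 3 to 5 that fell, mini-bulk medians of −0.99 to −0.66 (I), 0.18 to 0.62 (II) and −0.92 to −0.0015 (III), and POLR2I at −0.11 to 1.12, POLR2J3 at −0.37 to 0.34, POLR3D at −0.28 to 0.16 and POLR3K at −1.21 to 0.054 in the 2 fits that gave a value. In cells it gave 1 to 8 members higher and 2 to 7 lower, medians of −0.88 to 0.10 (I), 0.27 to 0.70 (II) and −0.90 to 0.12 (III), and POLR3C at −3.41 to 0.022. Detection differences were −0.055 to 1.34 in mini-bulk and −0.023 to 0.99 in cells.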
